A study of Homo sapiens and Mus musculus with 20 samples.

Results

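The genes described here are the 5 subunits of the NF-kB transcription factor family (NFKB1, NFKB2, REL, RELA and RELB) and 5 genes that NF-kB is known to switch on and that act back on the pathway (NFKBIA, NFKBIE, NFKBIZ, TNFAIP3 and BIRC3). They were taken by symbol and make up 10 of the 17554 genes listed for IMR90 cells. The study asked how the enzymes that add and remove lactyl groups on histones, and the supply of pyruvate, shape gene expression in ageing cells. Bulk RNA-seq was performed on 12 libraries of IMR90, a normal fibroblast line from human fetal lung, with 2 libraries in each of 6 groups. Cells given A485, an inhibitor of the acetyltransferase p300, were set against the untreated group Control2. Cells given MS-275, which blocks histone deacetylases of class I, were set against the untreated group Control3, and cells given pyruvate against the untreated group Control6. All groups are labelled wild type, and all stem from the same cell line. The labels give no dose, exposure time or passage, and the study's text, not the labels, describes the cells given pyruvate as senescent.

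NF-kB factors are dimers that an inhibitory protein holds in the cytoplasm until a receptor signal triggers its destruction. RELA, REL and RELB carry an activation domain, whereas NFKB1 and NFKB2 are made as long precursors that are processed to p50 and p52. Active dimers switch on their own inhibitors, so transcripts such as NFKBIA and TNFAIP3 serve as a readout of recent pathway activity, and in fibroblasts the pathway is known for driving inflammatory secretion.

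A promoter search looked for the kind of sequence through which some of these genes are known to be tied to the pathway. The motif, a plain form of the NF-kB site, was GGG, then any 2 bases, then TTTCC. It was looked for on both strands in RefSeq promoter windows of GRCh38.p14 that run from 250 bases before to 50 bases after an annotated start. Entries were found for 8 of the 10 genes (not for RELB and NFKBIE), and 7 of these 8 genes held a match, against 2.33% of all 27305 genes with a window. Of single windows, 8 of 13 held it against 1.91% of all 35116 windows. The motif was settled on after the sequences had been seen, and the genes were picked as pathway genes. The contrast with all genes is therefore not a test. A match is a description of letters, not a site shown to be bound. The matches are in capitals, 5′ to 3′ on the gene's strand, and where the match lies on the other strand the capitals are its reverse complement.
NFKB1 (chr4:102501300-102501329, plus strand): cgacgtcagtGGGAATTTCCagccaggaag
NFKB2, middle start (chr10:102394490-102394519, plus strand): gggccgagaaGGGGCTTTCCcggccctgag
NFKB2, last start (chr10:102395674-102395703, plus strand): tggtattttcGGGACTTTCCtaagctgctc
REL (chr2:60881518-60881547, plus strand, other-strand match): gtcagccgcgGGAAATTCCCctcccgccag
NFKBIA (chr14:35404811-35404840, minus strand, other-strand match): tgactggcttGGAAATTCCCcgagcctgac
NFKBIZ (chr3:101827757-101827786, plus strand): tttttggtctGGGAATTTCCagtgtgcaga
TNFAIP3, first match (chr6:137867182-137867211, plus strand, other-strand match): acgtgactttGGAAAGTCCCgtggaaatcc
TNFAIP3, second match (chr6:137867194-137867223, plus strand, other-strand match): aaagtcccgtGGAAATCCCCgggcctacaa
BIRC3 (chr11:102317275-102317304, plus strand, other-strand match): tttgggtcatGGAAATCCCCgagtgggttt
NFKB1 and NFKBIZ carried the same 10 letters (GGGAATTTCC), beginning 49 and 223 bases before their starts. REL and NFKBIA held the reverse complement of that match (GGAAATTCCC). BIRC3 and the second TNFAIP3 match also shared theirs (GGAAATCCCC). The TNFAIP3 window held 2 matches, beginning 67 and 55 bases before the start. In the 2 windows of RELA these letters were not found.

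Libraries held between 24179065 and 46971227 reads over the listed genes. Values are read counts divided by size factors, called normalized read counts here, and each experiment was scaled on its own. Levels are therefore compared only within an experiment, and between genes only per kilobase of the canonical transcript. Fibroblast markers were present (15 of 15 listed) and took 5.23% and 5.83% of the total in Control2 against 1.94% and 2.17% in A485 libraries, 5.80% and 2.83% in Control3 against 5.13% and 2.25% in MS-275 libraries, and 5.46% and 5.09% in Control6 against 6.22% and 6.26% in pyruvate libraries. Of 8 leukocyte markers, 3, 3 and 0 were listed in the A485, MS-275 and pyruvate experiments, with PTPRC and CD68 listed in none. Their summed value was 32.1 and 42.8 in Control2 against 41.3 and 55.2 in A485 libraries, and 16.8 and 34.4 in Control3 against 142 and 318 in MS-275 libraries, so it was higher in both MS-275 libraries. Of 5 endothelial markers, 3, 3 and 2 were listed, without PECAM1 and CDH5. Their sum was 508 and 1289 in Control2 against 189 and 127 in A485 libraries, 781 and 1391 in Control3 against 588 and 678 in MS-275 libraries, and 481 and 358 in Control6 against 1469 and 1448 in pyruvate libraries. It was thus lower in both A485 libraries and both MS-275 libraries, and higher in both pyruvate libraries, than in their controls. Of 5 epithelial markers, 3, 3 and 2 were listed, without CDH1 and SFTPC, and their sum was 2613 and 3049 in Control2 against 1263 and 1601 in A485 libraries, 1886 and 3566 in Control3 against 1166 and 2503 in MS-275 libraries, and 1894 and 1906 in Control6 against 1683 and 1588 in pyruvate libraries. The part of marker shifts in the results below was not tested, and in bulk samples fewer cells of a type and less RNA per cell cannot be told apart. Nothing states that the libraries of a group came from separate cultures, so the p-values measure the spread between these libraries, which may be technical.

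RELA, the main activating subunit, had the highest level per kilobase in Control2, at 1477 and 1631. It was followed by NFKBIA, which encodes the inhibitor IκBα, at 984 and 1012. NFKB2 and NFKB1 came next and overlapped each other, at means of 526 ± 17.5 and 501 ± 42.1 (SD, n = 2). Neighbours from NFKB1 down to TNFAIP3 overlapped as well, while BIRC3 (41.2 ± 6.61) and REL (16.0 ± 0.93, the lymphoid subunit c-Rel) stood apart at the bottom. Control6 had RELA at 1823 and 1829, NFKBIA at 708 and 747, NFKB2 at 461 and 417 and NFKB1 at 269 and 274.5, in that order and without overlap. In Control3, the NFKBIA range of 1001 to 2458 took in that of RELA (1135 and 1316). Neither REL nor BIRC3 was listed in the pyruvate experiment, so both have a level in 8 of the 12 libraries.

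**Figure D1:**
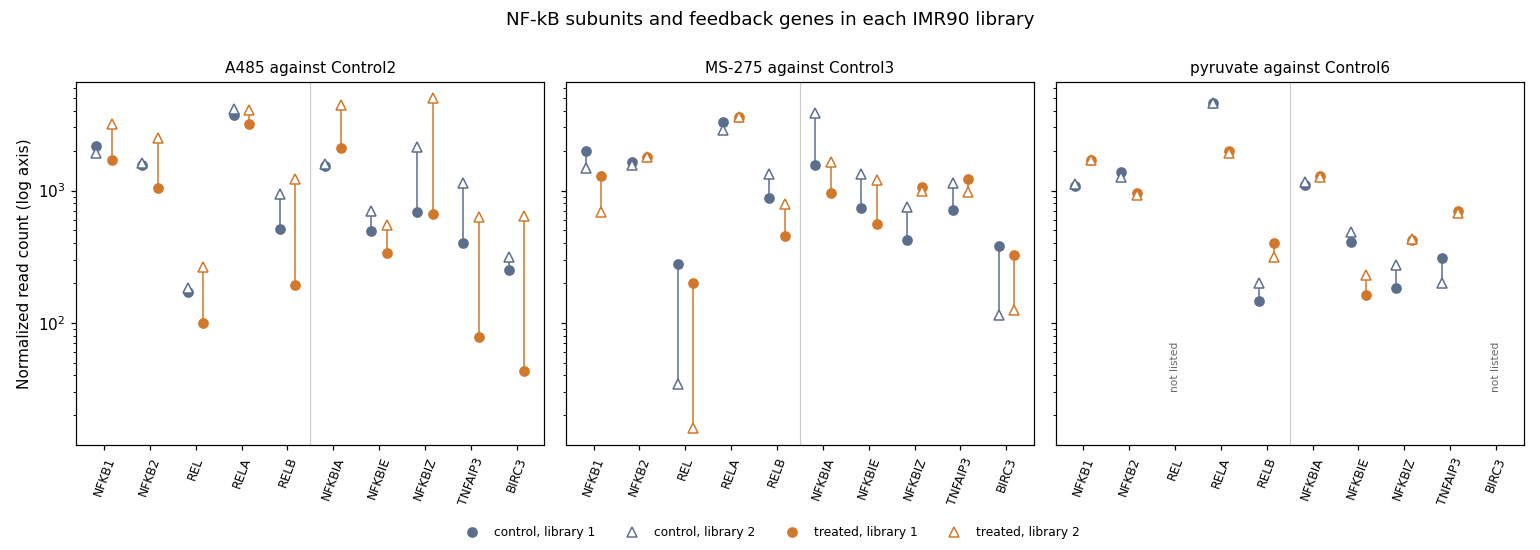
Normalized read counts (log axis) of the 10 genes in each library, with control libraries in blue and treated libraries in orange, circles for library 1 and triangles for library 2, and a line joining the libraries of a group. In A485 cells every triangle lies above its circle, whereas the pyruvate libraries of a group lie close together.

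None of the 10 genes passed in the A485 experiment, which does not show that they did not change. A gene was called when limma's adjusted p (Benjamini-Hochberg over all genes tested) was under 0.05 and its log2 fold change was beyond 1 in either direction, and 10.4% of all 16084 genes tested met this rule (3.31% higher, 7.06% lower). By unadjusted p under 0.05 it was 1 of the 10 (NFKBIA) and 30.8% of all genes. The median log2 fold change was -0.12 over the 10 genes and 0.01 over all genes. Instead, the A485 libraries differed from each other, with library 2 above library 1 for 10 of 10 genes (7947 of all 16084).

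NFKBIA measured 1535 and 1578 in Control2 and 2091 and 4469 in A485 libraries. Both A485 libraries were above both controls, and it was the only one of the 10 whose groups did not overlap (61.0% of all genes had this property). The log2 fold change was 0.97 (SE 0.35, 95% interval 0.11 to 1.84), with an adjusted p of 0.127 in limma. NFKBIA thus missed both limits of the call, and its log2 fold change ran from 0.43 to 1.52 with a library left out. It was called with equal library totals (1.37, adjusted p 0.0242) and in DESeq2 on recovered reads (1.08, adjusted p 0.0249), and over 11 alternatives the adjusted p ran from 0.0242 to 0.138. Set against RELA per kilobase, NFKBIA went from 0.667 and 0.620 in controls to 1.06 and 1.78 in A485 libraries. This ratio does not depend on the size factors of the libraries, and its groups did not overlap. How often ratios of other gene pairs have this property was not measured.

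Among the subunits, RELA measured 3717 and 4105 in Control2 and 3193 and 4042 in A485 libraries, with a log2 fold change of -0.12 (95% interval -0.58 to 0.33), which turned to 0.27 with equal library totals. NFKB1, the p50 precursor, measured 2153 and 1912 against 1689 and 3194. NFKB2, the p52 precursor, measured 1550 and 1624 against 1049 and 2505. In both, 1 A485 library lay below and 1 above the controls. The fitted log2 fold changes were 0.20 (95% interval -0.57 to 0.96) for NFKB1 and 0.03 (-0.94 to 1.004) for NFKB2. RELB, the subunit of the noncanonical pathway, measured 510 and 942 against 194 and 1223, and REL 170 and 185 against 100.3 and 264. Again the A485 libraries lay on either side of the controls. Their log2 fold changes were -0.51 (95% interval -2.54 to 1.52) for RELB and -0.12 (-1.36 to 1.11) for REL, and the latter turned to 0.27 with equal library totals.

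TNFAIP3, which encodes the ubiquitin-editing enzyme A20, measured 400.2 and 1133 in Control2 and 78.4 and 633 in A485 libraries. The lower A485 library was below both controls and the other lay between them. Its log2 fold change was -1.59 (SE 0.99, 95% interval -4.02 to 0.84, limma adjusted p 0.334). Within replicate number 1 the difference was -2.34 and within number 2 it was -0.84, so it was lower both times, though by unlike amounts, and the fitted value was -3.09 without A485 library 2 and -0.09 without A485 library 1. BIRC3, which encodes the inhibitor of apoptosis protein cIAP2, measured 251 and 316 against 43.0 and 646. It was the gene whose A485 libraries lay furthest apart, and its difference was -2.52 within number 1 and 1.03 within number 2. The fitted log2 fold change was -0.75 (95% interval -3.57 to 2.08), which turned to 0.30 in edgeR and 0.28 in DESeq2. NFKBIZ, a nuclear cofactor of the family, measured 690.3 and 2150 against 664 and 4982, and NFKBIE, which encodes IκBε, measured 498 and 705 against 335 and 545. NFKBIE was lower within both numbers (-0.57 and -0.37), with a log2 fold change of -0.47 (95% interval -1.28 to 0.34), and NFKBIZ had 0.58 (-1.80 to 2.96). In all, 4 of 10 genes kept 1 direction within both replicate numbers, against 75.5% of all genes tested.

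**Figure D2:**
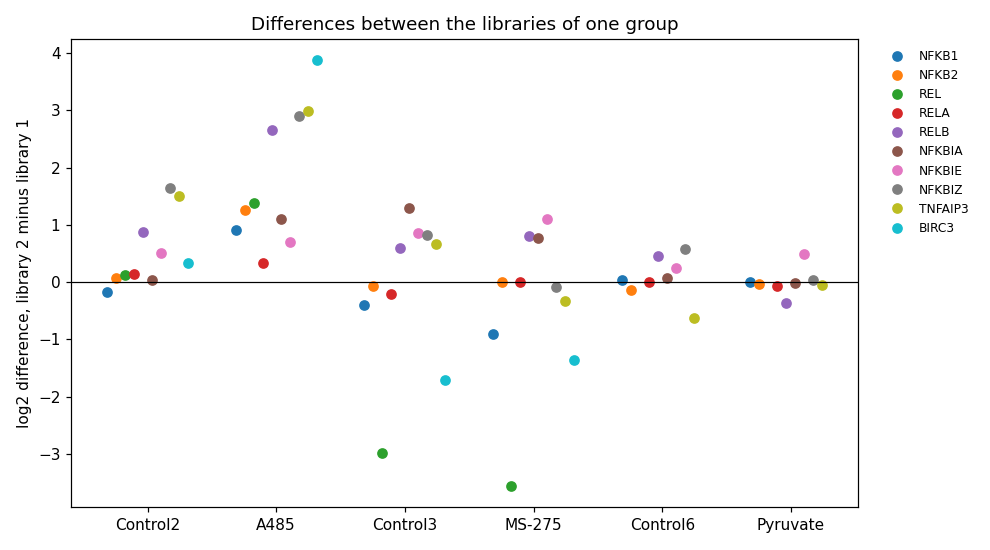
Difference between library 2 and library 1 of each group (log2 scale), with 1 point per gene. Points of the A485 group all lie above 0 and reach 3.88, REL lies near -3 or below in Control3 and MS-275, and the points of Control6 and Pyruvate lie within 0.63 of 0.

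The gap between the A485 libraries was measured over the whole group. Library 2 exceeded library 1 with a median log2 gap of 1.32 over the 10 genes and 0.00 over all genes tested. BIRC3 differed by 14.7-fold, TNFAIP3 by 7.99-fold, NFKBIZ by 7.49-fold and RELB by 6.28-fold, while RELA differed by 1.27-fold, all with 1 added to each value. More than 1 log2 unit separated the libraries for 7 of 10 genes, against 11.05% of all genes. The feedback genes had a median gap of 2.91 and the subunits 1.25. In Control2 library 2 was also the higher for 9 of 10 genes (8462 of all 16084). The median gap there was smaller, at 0.24 over the 10 and 0.03 over all genes, and NFKBIZ (1.64) and TNFAIP3 (1.499) led. A list of 32 NF-kB target genes, of which 28 were tested, had library 2 higher for 25 genes in A485 and for 25 in Control2, with median gaps of 2.03 and 0.84. The signalling genes that lie upstream had median gaps of 0.18 and 0.12. Their replicate gaps were therefore closer to those of all genes. The share of mitochondrial reads was 5.46% in A485 library 1 and 6.90% in library 2, and 4.09% and 5.34% in Control2. Their part in the gap was not tested.

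Pathway genes outside the 10 were called about as often as all genes. Those called were all lower, and lower calls also outnumbered higher ones among all genes. Of 46 signalling genes tested (receptors, adaptors, kinases and other regulators), 0 were called higher and 4 lower, or 8.70%. Of all genes, 10.4% were called (3.31% higher, 7.06% lower). BCL3, a nuclear partner of p50 and p52, measured 1103 and 785 in Control2 and 165 and 185 in A485 libraries (-2.40 on the log2 scale, SE 0.28, limma adjusted p 0.00643). TNFRSF1B, the TNF receptor TNFR2, measured 619 and 1323 against 100.3 and 157 (-2.84, SE 0.44, limma adjusted p 0.0149). IKBKE, an IKK-related kinase, had a log2 fold change of -1.90 (SE 0.29, limma adjusted p 0.0143). All of these genes had both A485 libraries below both controls. Of the 28 targets, 0 were called higher and 3 lower, or 10.7%, close to the share of all genes. The monocyte chemokine CCL2 measured 2208 and 2846 against 13.5 and 16.9 (-7.28, SE 0.33, limma adjusted p 0.000812). The cytokine LIF measured 4032 and 3673 against 131 and 420.4 (-4.03, SE 0.52, limma adjusted p 0.00842), and the stress kinase gene NUAK2 971 and 1179 against 176 and 166 (-2.64, SE 0.25, limma adjusted p 0.00358). For each of the 3 targets both A485 libraries lay below both controls. The 28 targets did not move together. Groups did not overlap for 10 of them (61.0% of all genes), and 14 kept 1 direction within both replicate numbers (75.5% of all genes). Fold changes were above 0 for 11 of the 28, with a median on the log2 scale of -0.40, against 0.01 for all genes. Without A485 library 1 the calls over all genes dropped from 1667 to 117, without A485 library 2 to 167, without Control2 library 1 to 844 and without Control2 library 2 to 520.

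MS-275 gave no called gene among the 10 and none among all 15883 tested (0.00%). By unadjusted p under 0.05 it was 0 of the 10 and 10.9% of all genes in limma. With the replicate number as a block, 0 of the 10 and 2183 of all genes were called, but no label says that the numbers pair libraries. In that limma fit NFKBIA, NFKB1, RELB and NFKBIZ had adjusted p of 2.49e-05, 0.000108, 0.000144 and 0.0011, all under the fold limit. The groups did not overlap for 5 of the 10 genes (38.9% of all genes), and 8 of 10 moved the same way within both replicate numbers (79.0% of all genes). The median log2 fold change was -0.16 over the 10 genes and -0.01 over all. The libraries of a group lay far apart here. More than 1 log2 unit separated them for 24.7% of all genes in Control3 and 25.8% in MS-275, against 3.78% in Control6 and 2.15% in the pyruvate group. Counts of calls are therefore not comparable between the experiments, and a count of 0 does not show that genes did not change.

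NFKB1 measured 1977 and 1492 in Control3 and 1289 and 688 in MS-275 libraries. Both MS-275 libraries were below both controls. Its log2 fold change was -0.87 (95% interval -2.003 to 0.27, limma adjusted p 0.603), made up of -0.62 within number 1 and -1.12 within number 2. RELB measured 876 and 1324 against 450.3 and 784, again without overlap, with -0.86 overall (-2.01 to 0.29, limma adjusted p 0.613), -0.96 within number 1 and -0.75 within number 2. For the other abundant subunits both MS-275 libraries were above both controls. NFKB2 measured 1635 and 1566 against 1779 and 1781 (log2 fold change 0.15, 95% interval -0.62 to 0.92), and RELA 3311 and 2857 against 3591 and 3576 (0.22, -0.55 to 0.99). Per kilobase, NFKB2 stood at 1.11 and 1.41 times NFKB1 in Control3 and at 1.86 and 3.48 times in MS-275 libraries, and the groups of this ratio did not overlap.

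REL differed more between the libraries of a group than between the groups. It measured 280 and 34.4 in Control3 and 199 and 15.9 in MS-275 libraries, so that library 2 was the lower in both groups, by 7.96-fold and 11.8-fold. Within number 1 the difference was -0.49 and within number 2 it was -1.06, while the interval over all 4 libraries ran from -4.798 to 3.25. BIRC3 was likewise lower in library 2 of both groups, at 377 and 115 in Control3 and 325 and 126 in MS-275 libraries. Its treatment difference was -0.21 and 0.12 within the numbers. Library 2 of both groups also held a smaller share of fibroblast markers, and COL1A1, the main collagen gene, measured 507812 and 138600 in Control3 and 396171 and 123075 in MS-275 libraries. The part of this shift in REL and BIRC3 was not tested.

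NFKBIA measured 1561 and 3831 in Control3 and 958 and 1635 in MS-275 libraries. The groups overlapped, yet within each number the MS-275 library was the lower, by -0.70 and -1.23 on the log2 scale. The fitted log2 fold change was -0.97 (95% interval -2.44 to 0.51, limma adjusted p 0.657). NFKBIZ measured 423 and 753 against 1055 and 998, with both MS-275 libraries above both controls, a log2 fold change of 0.86 (-0.20 to 1.92, limma adjusted p 0.578) and differences of 1.32 and 0.41 within the numbers. TNFAIP3 (709 and 1132 against 1231 and 983) and NFKBIE (732 and 1332 against 562 and 1201) overlapped between groups, with log2 fold changes of 0.30 (-0.71 to 1.30) and -0.27 (-1.67 to 1.14).

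No signalling gene (0 of 45) or target gene (0 of 30) was called with MS-275 in limma, and 7 and 4 of them had an unadjusted p under 0.05. By the smallest p, the signalling genes were CD40 and TNFRSF1B, both TNF receptor family members. CD40 measured 36.6 and 30.3 in Control3 and 234 and 477 in MS-275 libraries (3.29 on the log2 scale, SE 0.50, limma adjusted p 0.175). TNFRSF1B measured 1102 and 1334 against 2506 and 4053 (1.39, SE 0.38, limma adjusted p 0.314). Among targets, CSF1, the macrophage growth factor, measured 3440.0 and 3076 against 9764 and 8582 (1.49, SE 0.30, limma adjusted p 0.241), and CCL2 2399 and 3769 against 1149 and 987 (-1.50, SE 0.37, limma adjusted p 0.286). The 4 genes had groups that did not overlap and the same direction within both numbers. The sum of the leukocyte markers, most of it ITGAX, was also higher in both MS-275 libraries, and its part in these values was not tested.

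With pyruvate, most of the listed genes passed the test on p, as did most genes of the experiment. Of the 8 listed genes, 2 were called higher (RELB and TNFAIP3) and 2 lower (RELA and NFKBIE), against 31.0% higher and 23.1% lower among all 12013 genes tested (54.1% in all), so the share of calls was close to that of all genes. The adjusted p was under 0.05 for 7 of 8 genes (80.9% of all, and 81.8% by unadjusted p), and groups did not overlap for 8 of 8 (90.5% of all). Within both replicate numbers, 8 of 8 kept 1 direction (93.0% of all). In this experiment the fold changes followed GC content across genes (Spearman's rho -0.72 over 11888 genes, which share the same 4 libraries, against -0.11 with A485 and -0.02 with MS-275), and the 8 genes range from 46.2% to 64.9% GC. Each gene's fold change with pyruvate below is therefore also given with the trend on GC content and transcript length taken out of each library. That step moved the median of all genes from -0.01 to 0.20. It was not applied to the subunit shares, the ratio of NFKBIA to RELA per kilobase, or the counts and medians of signalling and target genes.

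**Figure D3:**
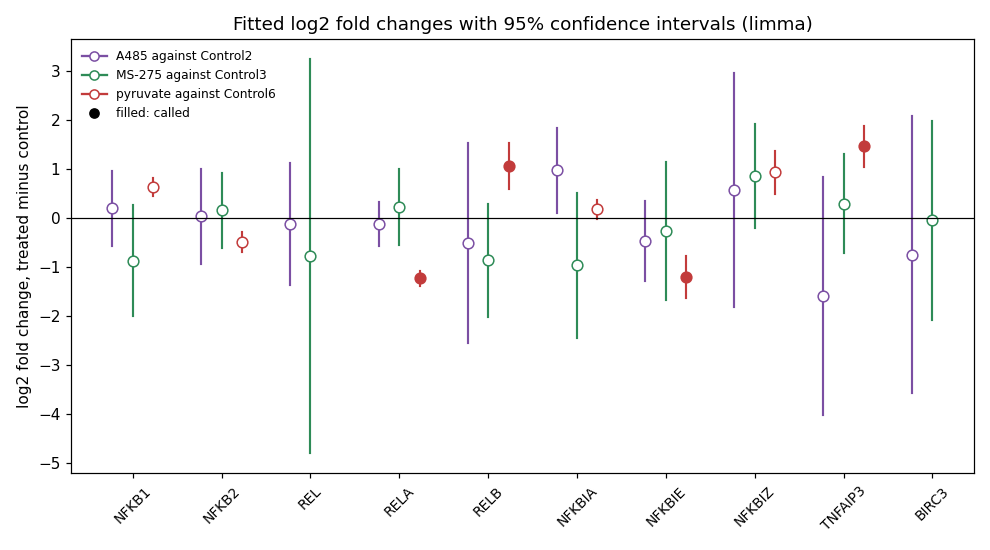
Fitted log2 fold changes (points) with 95% confidence intervals (lines) in the A485, MS-275 and pyruvate experiments, with filled points for called genes. The 4 filled points all belong to pyruvate (TNFAIP3, RELB, RELA and NFKBIE), the fall of RELA shrinks to -0.05 and NFKBIE turns to 0.07 once the length and GC trend is removed, and the intervals are narrowest for pyruvate.

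TNFAIP3 measured 308 and 199.6 in Control6 and 699 and 672 in pyruvate libraries. Both treated libraries were above both controls. The log2 fold change was 1.46 (SE 0.19, limma adjusted p 2.26e-05), and it was 1.699 (adjusted p 0.000305) without the length and GC trend. It ran from 1.07 to 1.77 over 9 alternatives, with adjusted p up to 0.000338, and from 1.15 to 1.77 with a library left out.

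RELB measured 145 and 201 in Control6 and 404 and 313 in pyruvate libraries, without overlap. It rose by a log2 fold change of 1.05 (SE 0.21, limma adjusted p 0.000692), which became 2.53 without the length and GC trend and 0.43 (adjusted p 0.0804) after quantile normalization. Over 9 alternatives its adjusted p ran from 5.62e-06 to 0.0804. Without Pyruvate library 1 the value was 0.87 and without Control6 library 1 it was 0.82, both under the fold limit.

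NFKB1 measured 1090.2 and 1113 in Control6 and 1708 and 1715 in pyruvate libraries. The libraries of each group were almost the same and the groups lay well apart. It rose by 0.64 (SE 0.08, limma adjusted p 2.68e-05), under the fold limit, and by 1.07 without the length and GC trend. NFKBIZ measured 182 and 273 against 421 and 432, a rise of 0.93 (SE 0.20, limma adjusted p 0.00104). It missed the test without the length and GC trend (0.58, adjusted p 0.0581) and after quantile normalization (0.38, adjusted p 0.0841), and was called with equal library totals (1.24) and without Control6 library 2 (1.23).

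RELA measured 4588 and 4604 in Control6 and 2003 and 1918 in pyruvate libraries. The groups lay far apart, and RELA had the largest difference relative to its error of the 8 genes, with a log2 fold change of -1.23 (SE 0.07, limma adjusted p 1.91e-08). This fall was not left once the length and GC trend was removed, where the value was -0.05 (adjusted p 0.51), and it was under the fold limit with equal library totals (-0.92) and quantile normalization (-0.99). NFKBIE measured 406 and 483 against 161 and 228 (-1.20, SE 0.20, limma adjusted p 0.000149), which turned to 0.07 (adjusted p 0.793) without the trend, fell short of the fold limit with equal library totals (-0.89) and without Pyruvate library 1 (-0.95), and reached -1.72 after quantile normalization. NFKB2 measured 1390 and 1256 against 950 and 929 (-0.49, SE 0.10, limma adjusted p 0.000549), and turned to 0.73 (adjusted p 0.000237) without the trend. These 3 genes have transcripts of 58.6%, 60.4% and 61.2% GC. RELB, at 64.9%, had a value above 0 under each of these ways of scaling.

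NFKBIA measured 1103 and 1164 in Control6 and 1287 and 1276 in pyruvate libraries. The pyruvate libraries were a little above the controls, with a log2 fold change of 0.18 (95% interval -0.02 to 0.37, limma adjusted p 0.0877). Without the length and GC trend it was 1.21 (adjusted p 8.03e-06). Of the 8 genes, 4 were called after that step (NFKB1, RELB, NFKBIA and TNFAIP3), all higher. Over all genes 3572 of 11888 were then called, 67.9% of them higher, and the median was 0.20.

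**Figure D4:**
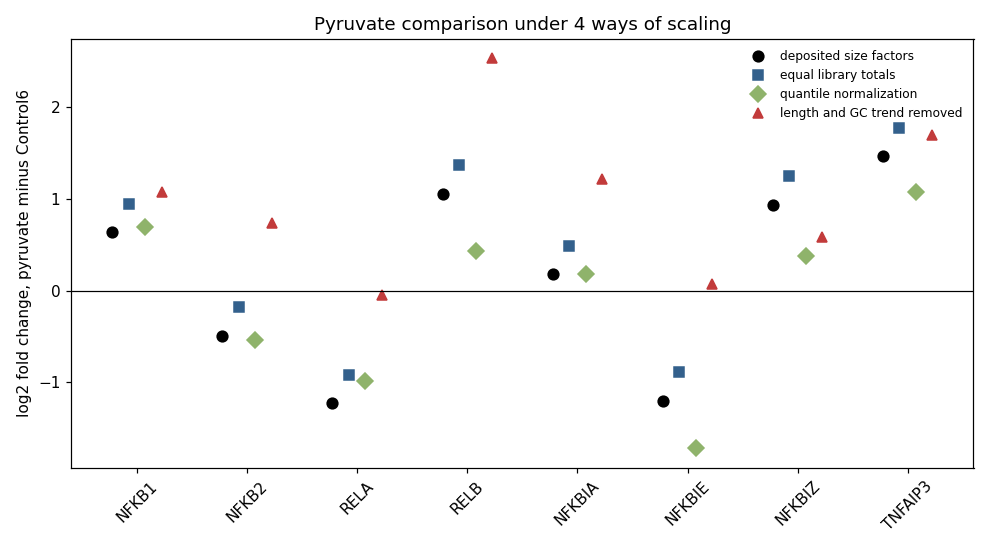
Log2 fold change of pyruvate against Control6 for the 8 listed genes with the deposited size factors, equal library totals, quantile normalization, and the length and GC trend removed. TNFAIP3, RELB, NFKB1, NFKBIZ and NFKBIA stay above 0 under all 4. NFKB2 and NFKBIE lie below 0 under 3 of them and above 0 with the trend removed, and RELA moves from -1.23 to -0.05.

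The balance between subunits shifted with pyruvate, in shares from which the length and GC trend was not removed. With that trend removed, the log2 fold change of RELA was -0.05. RELA supplied 69.7% and 70.1% of the summed level per kilobase of RELA, NFKB1, NFKB2 and RELB in Control6 and 46.5% and 46.7% in pyruvate libraries, while NFKB1 went from 10.3% and 10.5% to 24.6% and 25.9%. RELB went from 2.46% and 3.41% to 10.5% and 8.50%, and NFKB2 from 17.6% and 16.0% to 18.4% and 18.9%. In the 8 libraries of the other experiments the RELA share lay between 42.6% and 59.9%, so the Control6 libraries were the highest and the pyruvate libraries within the others' range. Fold changes followed GC content far more in the pyruvate experiment, and the part of this in the ranking was not tested. NFKBIA per RELA went from 0.388 and 0.408 to 1.04 and 1.07. Relative to RELA, TNFAIP3 gained 2.69 on the log2 scale, RELB 2.28, NFKB1 1.86 and NFKBIA 1.41, and with the length and GC trend removed 1.75, 2.58, 1.11 and 1.26. For NFKBIZ the difference was 2.16 and 0.63, for NFKB2 0.74 and 0.78 and for NFKBIE 0.03 and 0.12, and that of NFKBIE was -0.73 after quantile normalization. The direction of the 7 differences was thus the same with and without the trend, with RELB, NFKB2 and NFKBIE larger and the other 4 smaller without it.

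**Figure D5:**
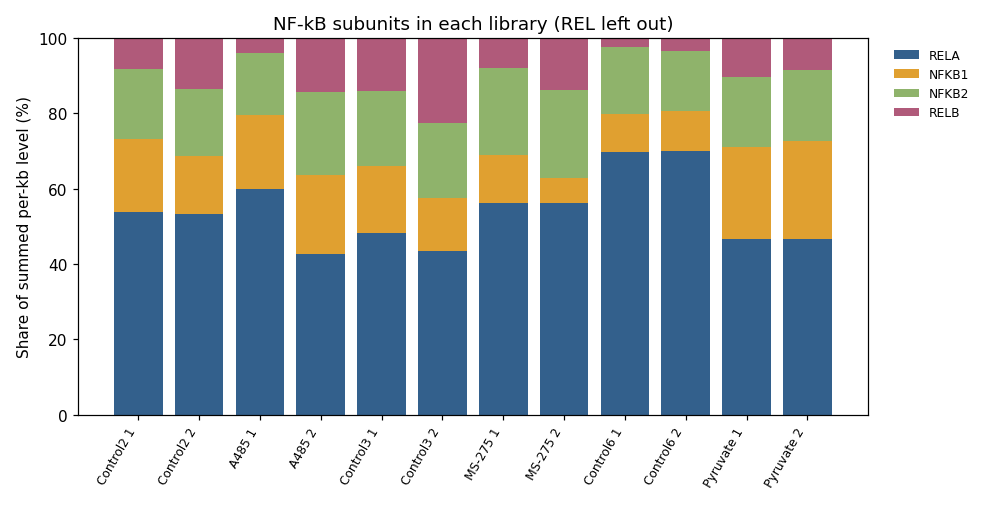
Share (%) of RELA, NFKB1, NFKB2 and RELB in their summed level per kilobase, with 1 bar per library and the length and GC trend not removed. RELA makes up 69.7% and 70.1% in the Control6 bars and 46.5% and 46.7% in the Pyruvate bars, and the A485 bars differ from each other (59.9% and 42.6%).

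Of 43 signalling genes tested with pyruvate, 15 were called higher and 11 lower (60.5%, against 54.1% of all genes). Their median log2 fold change was -0.11, against -0.01 for all genes. CUL1, the scaffold of the ligase that marks IκB for destruction, measured 464 and 429.7 in Control6 and 2310.2 and 2258 in pyruvate libraries (2.35, SE 0.10, limma adjusted p 1.93e-09). IL1R1, the interleukin-1 receptor, rose by 2.04 and RIPK1, a kinase of the TNF receptor complex, by 1.48. All 3 were also called without the length and GC trend (1.58, 1.10 and 1.73). RBCK1, a subunit of the linear ubiquitin ligase, had -1.45, the lymphotoxin receptor LTBR -1.36 and TNFRSF1A, the main TNF receptor, -1.25. None of these 3 was called once that trend was removed (-0.36, -0.02 and -0.08). Of 22 targets tested, 7 were called higher and 6 lower (59.1%, against the same 54.1% of all genes). CXCL8, the neutrophil chemokine IL-8, measured 46.2 and 60.8 in Control6 and 1580 and 1435 in pyruvate libraries (4.803, SE 0.18, limma adjusted p 1.12e-09), and 4.01 without the trend. ICAM1, an adhesion receptor for leukocytes, rose by 2.36 (3.39 without the trend). The sum of the endothelial markers was higher with pyruvate too, and its part in ICAM1 was not tested. LIF and PTX3, a pattern recognition protein, had -2.11 and -1.38, and both were still lower without the trend (-1.17 each). The mitochondrial enzyme gene SOD2 (1.47) turned to -0.15 and the survival gene BCL2L1 (-1.46) dropped to -0.36 without it.

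The 3 treatments were then compared gene by gene through the difference of their effects in limma, each effect taken within its own experiment. Between A485 and MS-275, 0 of the 10 genes passed an adjusted p of 0.05 (3.81% of 15130 genes did, and 17.6% had an unadjusted p under 0.05). NFKBIA had the smallest p of the 10, with an A485 effect larger by 1.94 (95% interval 0.20 to 3.68, adjusted p 0.235). Between A485 and pyruvate, 1 of 8 passed (65.4% of 11993 genes, and 68.5% by unadjusted p), which was RELA, with a difference of 1.11 (SE 0.19, adjusted p 0.00113) that turned to -0.08 without the length and GC trend. TNFAIP3 had -3.05 (95% interval -5.83 to -0.27, adjusted p 0.0534), just above the threshold. Between MS-275 and pyruvate, 3 of 8 passed (41.1% of 12005 genes, and 51.4% by unadjusted p). RELA differed by 1.45 (adjusted p 0.00324), NFKB1 by -1.50 (adjusted p 0.0341) and RELB by -1.91 (adjusted p 0.027). The differences for NFKB1 and RELB were -1.95 and -3.37 without the length and GC trend and both passed, whereas that of RELA was 0.28 (adjusted p 0.56). Leaving out any 1 of the Control6 or Pyruvate libraries left 1 of the 3 past the threshold, and leaving out Control3 library 2 left 2. Counts also rose to 4 of 8 for A485 against pyruvate without A485 library 2, to 3 without A485 library 1 and to 2 without Control2 library 1.

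Genes whose pattern was most like that of NFKBIA were named from 11989 genes by Pearson's r over the 12 libraries, on log2 values minus the control mean of the same experiment. Among them were ZSCAN25 (r = 0.96), COPG2 (0.95), HACD1 (0.92) and SRSF5 (0.91). Within the family, NFKB1 had 0.51 and RELB 0.46, while TNFAIP3 had -0.13 and RELA -0.25. The points share controls within an experiment, so these values are descriptive.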

How the data were processed

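Total RNA of 12 IMR90 libraries was extracted with TRIzol and sequenced on Illumina instruments. The authors trimmed reads with Trim Galore 0.6.10, aligned them to hg38 with HISAT2 2.2.1 and SAMtools 1.7, counted them per gene with featureCounts 2.0.6 and deposited counts divided by DESeq2 1.34.0 size factors (unit: signal), 1 library per file. The strand setting and annotation are not given in the sources used here, so REL, RELA, NFKBIZ, TNFAIP3 and BIRC3, which overlap other annotated genes, may share reads. The mouse muscle libraries were not used here.

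Genes averaging 10 or more across the 4 libraries of an experiment were tested with limma 3.58.1 (R 4.3.3, eBayes with trend) on log2(value + 1), which understates changes of low genes, with Benjamini-Hochberg adjustment over all of them. Fold changes are on that scale. Differences of effects used the 8 libraries of both experiments. Whole reads were recovered for 100% of values (tolerance 0.01), and edgeR 4.0.16 and DESeq2 1.42.0 were run on them for A485 against Control2. Levels per kilobase and GC content came from GENCODE canonical transcripts (17250 genes matched by symbol), and promoters from RefSeq. No 2 libraries of a group agreed within sampling noise. The fit was tested on simulated data. It missed most of the changes put in with A485 and all of them with MS-275, and found most with pyruvate. A gene not called may therefore have changed. All 10 genes are named, along with up to 3 called genes per direction of each list by adjusted p (or the 2 of smallest p where none was called) and the 5 genes most like NFKBIA, of which 1 is not reported here. The members and lists were chosen with earlier results of these data known. Alternatives covered the pseudocount (0.1, 10), the filter (none, 50), scaling, length and GC, the replicate number, a fold limit of 0.58 and leaving out each library.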

Additional observations from a re-analysis of the deposited data

How the results depend on the processing

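The labels number the libraries but do not say that a number pairs them, and 2 numbers per experiment cannot settle it (the correlation of same-numbered deviations was 0.32 with A485, 0.73 with MS-275 and 0.00 with pyruvate). With the replicate number as a block, calls over all genes went from 1667 to 2486 with A485 and from 0 to 2183 with MS-275 (1230 higher, 953 lower). In the block 1 of the 10 genes was called with A485 (TNFAIP3, adjusted p 0.0197) and 0 with MS-275, although NFKBIA, NFKB1, RELB and NFKBIZ then had adjusted p of 2.49e-05, 0.000108, 0.000144 and 0.0011, and CD40 (adjusted p 3.86e-07), TNFRSF1B (2.3e-07), CSF1 (1.03e-08) and CCL2 (1.23e-06) were all called with MS-275. The genes passing rose to 2 (A485 minus MS-275), 4 (A485 minus pyruvate) and 7 (MS-275 minus pyruvate). Equal library totals gave 1 of the 10 called with A485 (NFKBIA), 2578 calls overall (65.1% higher, against 31.9%) and 2 genes passing for A485 minus pyruvate, and turned REL and RELA with A485 (0.27 each) and NFKB2 (0.41), RELA (0.19), NFKBIE (0.33) and NFKBIZ (0.25) for A485 minus MS-275. It moved the median of all genes by 0.40 with A485 and to 0.30 with pyruvate, where 71.7% of calls were then higher, against 57.3%. Quantile normalization left 2 of 8 called with pyruvate, gave 2 passing for A485 minus pyruvate, made 42.6% of A485 calls higher, and turned NFKBIZ for A485 minus pyruvate (0.27) and MS-275 minus pyruvate (0.55). Removing the length and GC trend left 3572 calls with pyruvate (67.9% higher) and turned NFKB2 (0.73), NFKBIE (0.071) and SOD2 (-0.15). For A485 minus pyruvate it turned NFKB2 (-0.71), RELA (-0.076), NFKBIA (-0.19), NFKBIE (-0.55) and NFKBIZ (0.048), and for MS-275 minus pyruvate NFKB2 (-0.56), NFKBIE (-0.32) and NFKBIZ (0.29). With A485, DESeq2 called 1 of the 10 (NFKBIA), and edgeR and DESeq2 turned REL (0.057 and 0.036) and BIRC3 (0.30 and 0.28) and neither was run for MS-275 or pyruvate. With each library left out in turn, calls over all genes ran from 117 to 844 with A485 and from 0 to 419 with MS-275, and the listed genes called with pyruvate from 2 (without Pyruvate library 1) to 5. A left-out library leaves a group of 1, assumed to vary like the others. Genes passing ran from 1 to 4 for A485 minus pyruvate and from 1 to 4 for MS-275 minus pyruvate. Values that changed sign in those fits ran, with A485, from -0.26 to 0.65 for NFKB1, -0.60 to 0.66 for NFKB2, -0.82 to 0.57 for REL, -0.29 to 0.049 for RELA, -1.83 to 0.82 for RELB, -0.87 to 2.03 for NFKBIZ and -2.68 to 1.19 for BIRC3. With MS-275 they ran from -2.56 to 1.007 for REL, -0.81 to 0.28 for NFKBIE, -0.042 to 0.63 for TNFAIP3 and -0.90 to 0.81 for BIRC3. For A485 minus MS-275 they ran from -0.75 to 0.51 for NFKB2, -1.13 to 2.43 for REL, -0.98 to 1.67 for RELB, -0.75 to 0.34 for NFKBIE, -1.74 to 1.17 for NFKBIZ and -2.64 to 1.24 for BIRC3. For A485 minus pyruvate they ran from -0.90 to 0.019 for NFKB1, -0.10 to 1.15 for NFKB2 and -1.81 to 1.10 for NFKBIZ, and for MS-275 minus pyruvate from -0.49 to 0.34 for NFKBIZ. The cause of these changes was not tested. The pseudocount, the filter and the fold limit turned no direction.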
